A study of Arabidopsis thaliana with 8 samples.

Results

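The summits described here are positions on the 5 nuclear chromosomes that were called in replicate 1 of an ARR12-GFP ChIP-seq experiment and had no counterpart in replicate 2. A summit of replicate 1 was kept when no replicate 2 summit lay within 1000 bp and no summit of either control library lay within 200 bp. This left 3342 of 8137 nuclear replicate 1 summits; all 4 anti-GFP libraries together held 14396 summits. They are called replicate 1-only summits. Both ARR12-GFP libraries came from root apical meristems of seedlings in the Col-0 background that carried an ARR12-GFP fusion, and the control libraries came from the same tissue of a control genotype that the series' design text names as Col-0, treated with the same anti-GFP antibody. The titles of the control libraries carry the word GFP, and whether those plants expressed free GFP is not stated. All seedlings were grown for 3 days at 22 °C on half-strength Murashige Skoog medium in long days after 5 days of stratification. Each genotype had 2 independent biological replicates. Neither the promoter that drives the fusion nor the state of the native ARR12 gene is stated in the labels.

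ARR12 is a B-type response regulator, the kind of transcription factor that carries out the cytokinin response in the nucleus. Cytokinin binds histidine kinase receptors of the AHK family, phosphotransfer proteins of the AHP family carry the phosphate into the nucleus, and B-type regulators then bind DNA and activate genes that include the A-type regulators, which dampen the signal. In the root, cytokinin acts through ARR1 and ARR12 at the boundary between dividing and differentiating cells, partly by changing auxin transport and the level of the Aux/IAA repressor SHY2. A summit is the highest point of a called peak, and its score is a −log10 p-value or q-value that the authors deposited. Scores rank summits within a library and are not compared between libraries.

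The rule split the replicate 1 list as follows. A replicate 2 summit lay within 200 bp of 3575 summits (43.9%) and at more than 200 and up to 1000 bp from a further 1187 (14.6%). Another 33 had no replicate 2 summit within 1000 bp but lay within 200 bp of a control summit. The replicate 1 summits found again within 1000 bp and away from control summits numbered 4682 and are used for comparison. The rule applied the other way around gave 784 replicate 2-only summits of the 5492 in that library. Read numbers per library are not in the lists, so the part of depth in these counts was not tested. Because 1 library defines the class, no test across replicates exists for it. Intervals in parentheses are exact binomial 95% intervals that cover counting error only.

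At the ARR12 gene itself (AT2G25180), replicate 1 had a summit inside the gene with a score of 9.20, rank 4470 of its list. Replicate 2 had no summit within 12295 bp of the gene, and the nearest control summits lay 315971 and 316085 bp away. The summit in ARR12 is therefore one of the replicate 1-only summits.

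Replicate 1-only summits were mostly low in the score list. Their scores ran from 2.09 to 59.6 with a median of 7.32, while summits found again ran from 2.38 to 161.7 with a median of 14.1. Of the replicate 1-only summits, 1330 (39.8%, 38.1 to 41.5) fell in the lowest score quartile of the library and 158 (4.73%, 4.03 to 5.50) in the highest. None was among the 100 best summits of replicate 1, and the best one ranked 156. In the lowest decile of the list 551 of 814 summits (67.7%, 64.4 to 70.9) were replicate 1-only, and in the highest decile 21 of 813 (2.58%, 1.61 to 3.92). The absence from replicate 2 defines the class, so these values describe it and carry no test. The share per chromosome ranged from 39.6% (37.2 to 42.1) on chromosome 3 to 42.2% (39.5 to 44.9) on chromosome 2.

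**Figure D1:**
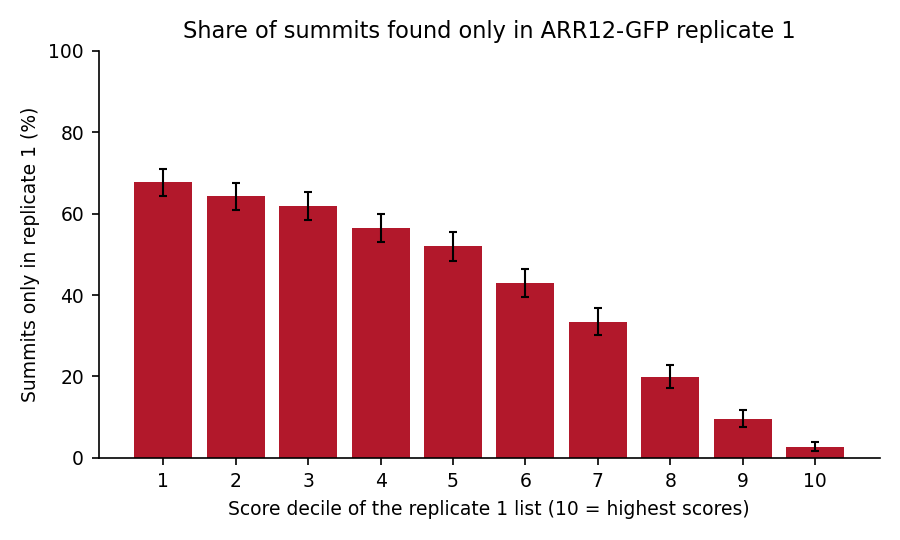
Share of nuclear replicate 1 summits that were replicate 1-only (vertical axis, percent) in each decile of the list by score (horizontal axis). Bars give the share and lines the exact binomial 95% interval, and the share falls from 67.7% in the lowest decile to 2.58% in the highest.

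The 1000 bp limit cut through a continuous range of distances. The summits that only just met the rule were one at AT1G14210 at 1001 bp from a replicate 2 summit, with a score of 3.77, one near TLP1 at 1001 bp with a score of 4.46, and one near LNG2 at 1003 bp with a score of 34.9. Those that only just missed it were summits near AT1G15400 and ERD5 at 999 bp, with scores of 10.9 and 5.68, and one near AT3G21770 at 998 bp with a score of 4.13. The median distance of a replicate 1-only summit to a replicate 2 summit was 6317 bp (order-statistic interval 5890 to 6828). In all, 639 (19.1%) had a replicate 2 summit at 1001 to 2000 bp and 1254 (37.5%) had none within 10000 bp.

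Of the 100 highest-scoring ones, 37 had a replicate 2 summit at 1001 to 2000 bp and 31 had none within 10000 bp. The median score, by contrast, varied little with distance, from 7.76 (7.41 to 8.08) at 1001 to 2000 bp to 7.04 (6.74 to 7.60) at 5001 to 10000 bp and 7.25 (7.05 to 7.45) beyond. The share farther than 1000 bp from any protein-coding gene was 38.0% (34.2 to 41.9) at 1001 to 2000 bp from a replicate 2 summit and 19.1% (17.0 to 21.4) beyond 10000 bp. Of all replicate 1-only summits, 580 (17.4%, 16.1 to 18.7) had a summit found again within 2000 bp in the same library. Among the 100 highest-scoring ones this was the case for 27 (18.6% to 36.8%). Peak widths are not in the summit lists, so whether such neighbours belong to 1 broad peak was not tested.

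**Figure D2:**
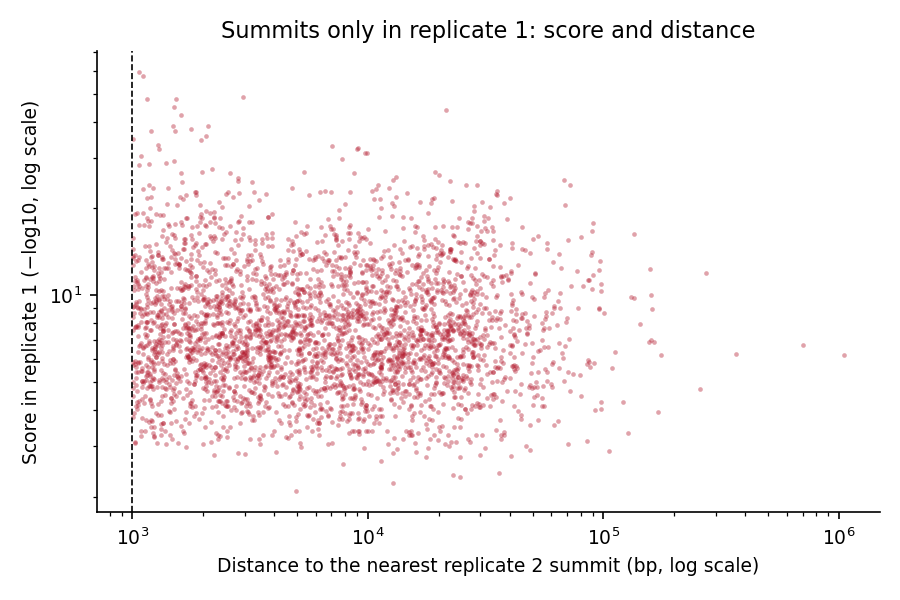
Each point is 1 of the 3342 replicate 1-only summits, with its distance to the nearest replicate 2 summit in bp (horizontal, log scale) and its replicate 1 score (vertical, log scale); the dashed line marks the 1000 bp limit of the rule. The 2 highest scores, 59.6 and 57.7, lie at 1067 and 1104 bp, scores of up to 43.9 occur beyond 10000 bp, and the median score is 7.76 at up to 2000 bp and 7.25 beyond 10000 bp.

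The 25 highest-scoring replicate 1-only summits had scores from 29.7 to 59.6, and 15 of them had a replicate 2 summit at 1001 to 2000 bp. In TAIR10 coordinates the first lay on chromosome 2 at 1566936, with a score of 59.6, and its nearest protein-coding gene was AT2G04500 at 1343 bp. The next lay on chromosome 1 at 6621015, 762 bp from JAZ1 (AT1G19180), which encodes a jasmonate repressor, with a score of 57.7. A replicate 2 summit was present 1104 bp away from it. Both summits thus stood beside positions that replicate 2 also marked.

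Of the other summits among the 25, the one inside IAA16 (AT3G04730), an Aux/IAA repressor gene, lay on chromosome 3 at 1288261 and scored 48.9. IAA16 also had a summit found again in its searched window, with a score of 56.3. CKX3 (AT5G56970), which encodes a cytokinin oxidase that degrades the hormone, had a summit at 1452 bp with a score of 34.5, and the nearest replicate 2 summit lay 1955 bp from it. Its window also held a summit found again. A summit with a score of 37.1 had YUC8 (AT4G28720), an auxin synthesis gene, as its nearest gene, at 4807 bp, well outside the 1500 bp window used below to assign genes. Within that window YUC8 had a summit found again with a score of 7.53. AUF1 (AT1G78100), an F-box gene named for its induction by auxin, had one at 1256 bp with a score of 30.4. The nearest replicate 2 summit lay 1089 bp from it.

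LBD37 (AT5G67420), a LOB-domain transcription factor gene known from nitrogen responses, held a summit with a score of 48.1 inside the gene, and the replicate 2 summit 1148 bp away had a score of 3.85 in its own list. TEM1 (AT1G25560), a repressor of flowering, had a summit at 116 bp with a score of 48.1. ERD5 (AT3G30775), the gene of a proline dehydrogenase, had one at 313 bp with a score of 44.9. Further summits lay at 1489 bp from BT5 (AT4G37610), a BTB and TAZ domain gene, at 1018 bp from the laccase gene LAC16 (AT5G58910), at 764 bp from ATATH8 (AT2G39190), and at 1655 bp from LNG2 (AT3G02170), which promotes lengthwise cell growth. Their scores were 38.8, 37.7, 35.6 and 34.9. The replicate 2 summits nearest to those at TEM1, ERD5, BT5 and LAC16 lay 1534, 1495, 1492 and 1769 bp away. In their own list these scored 24.7, 41.8, 39.4 and 23.0. Those nearest to the summits at ATATH8 and LNG2 lay 2063 and 1003 bp away and scored 13.1 and 5.74. A replicate 1 summit found again also lay 929 bp from the one at ERD5.

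Only 7 of the 25 strongest summits were more than 5000 bp from any replicate 2 summit. The one with the highest score, 43.9, lay 85 bp from AT1G22550 on chromosome 1 at 7968777, and the nearest replicate 2 summit was 21511 bp away. The others had AT2G37980, AT4G02170, AT5G11930, AT1G72240, AT3G20370 and AT1G53340 as nearest genes, with scores from 29.7 to 32.9. The summit at AT3G20370 lay inside the gene and those at AT1G53340 and AT5G11930 at 223 and 496 bp. Other nearest genes among the 25 were AT5G07430, AT1G25550, AT4G35750, AT1G22180 and AT2G20080, the last of which the gene table lists as TIE2, a TCP-interacting protein with an EAR motif. The summits lay 2456 bp from AT1G22180 and 5444 bp from AT2G20080, outside the 1500 bp window used below to assign genes.

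Joined at gaps of up to 2000 bp, they formed 2575 single summits, 302 pairs, 41 runs of 3 and 10 runs of 4. One run of 4, on chromosome 3 from 10879776 to 10882508 with scores from 4.51 to 26.5, had ABCB19 as its nearest gene, which encodes an auxin transporter. The strongest summit of this run lay 3373 bp from ABCB19, outside the 1500 bp window used below to assign genes. Another run of 4, on chromosome 2 from 12626299 to 12631364 with scores from 6.24 to 8.64, ran along the neighbouring glutathione transferase genes GSTU4, GSTU3 and GSTU1. The gene with the most replicate 1-only summits was NUDT22 (AT2G33980), with 5 that scored from 3.91 to 7.92. Its annotated length was 10295 bp against a median of 2078 bp for all protein-coding genes.

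Position relative to genes was not part of the rule, which used distance to replicate 2 and control summits. Of the replicate 1-only summits, 992 (29.7%, 28.1 to 31.3) lay inside a protein-coding gene, 1527 (45.7%, 44.0 to 47.4) lay outside but within 1000 bp of one, and 823 (24.6%, 23.2 to 26.1) lay farther away. Outside genes, the nearest gene was a median of 594 bp away (553 to 643). In bins of 200 bp, the most occupied ones were on either side of the gene edge, with 18.3% of summits in the first 200 bp outside and 16.5% in the first 200 bp inside. At 400 to 600 bp inside the edge the share was 1.80%. The gene table holds no strand, so starts and ends of genes are not told apart.

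Taken over all scores, summits found again had nearly the same positions. They were inside genes in 29.1% (27.8 to 30.4) and farther than 1000 bp in 23.2% (22.0 to 24.5). The difference for the share inside genes, replicate 1-only minus found again, was 0.61 percentage points (Newcombe 95% interval -1.40 to 2.64). Score differs between the classes, however, and the share inside genes fell with score in both. Within the lowest score quartile 34.4% of replicate 1-only summits and 39.7% of those found again were inside genes, a difference of -5.38 points (-9.83 to -0.97). In the next quartile the shares were 27.9% and 36.8%, a difference of -8.91 points (-13.0 to -4.79). In the upper quartiles the intervals included 0, with differences of -2.98 (-6.97 to 1.13) and -1.66 points (-7.43 to 5.46). The share farther than 1000 bp was higher among replicate 1-only summits in each quartile, by 3.5 (-0.20 to 7.03), 7.44 (3.9 to 10.9), 6.89 (2.96 to 10.9) and 7.75 points (0.28 to 15.8) from the lowest quartile up. The difference inside genes was thus seen at low scores, and the excess far from genes had an interval above 0 in the upper 3 quartiles.

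**Figure D3:**
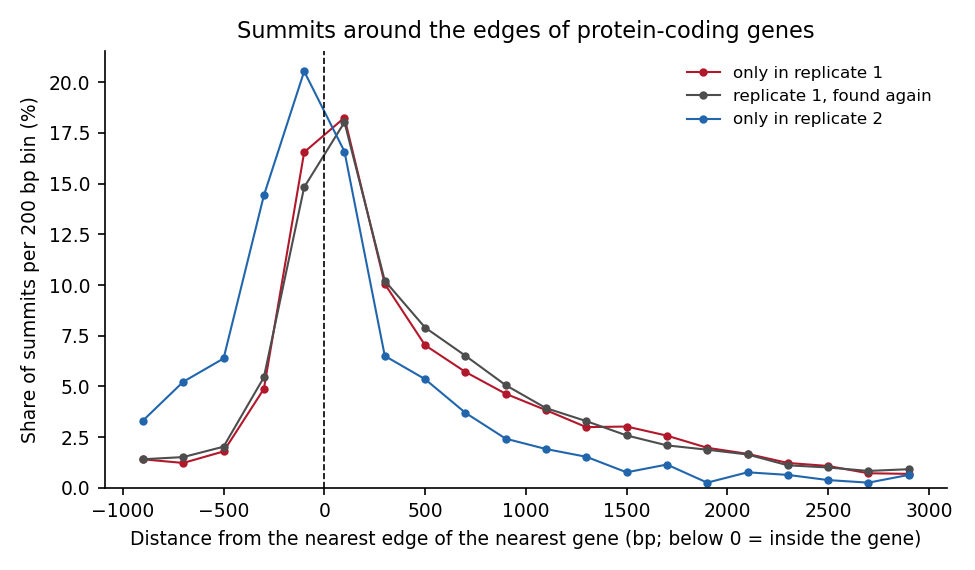
Share of summits per 200 bp bin (vertical, percent) by distance from the nearest edge of the nearest protein-coding gene in bp (horizontal, negative inside the gene), for replicate 1-only summits, replicate 1 summits found again and replicate 2-only summits. The replicate 1 curves run together, with 18.3% and 18.0% in the first 200 bp outside genes, while the replicate 2-only curve is shifted into genes, with 20.5% in the first 200 bp inside.

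The summits that only 1 library held were placed differently in the 2 libraries. Of the 784 replicate 2-only summits, 437 (55.7%, 52.2 to 59.3) lay inside a protein-coding gene and 76 (9.69%, 7.71 to 12.0) lay more than 1000 bp away. The share inside genes was thus 26.1 points lower among replicate 1-only summits (Newcombe interval of the difference, replicate 1-only minus replicate 2-only, -29.8 to -22.2). Each score quartile showed this direction, with differences of -28.9 (-34.4 to -23.0), -22.7 (-29.2 to -16.1), -25.9 (-35.0 to -16.6) and -23.0 points (-37.3 to -8.91) from the lowest quartile up. Outside genes, the median distance was 309 bp (257 to 435) for replicate 2-only summits against 594 bp. A smaller difference of the same direction was present among summits that the libraries shared, of which 29.1% lay inside genes by their replicate 1 position and 35% (33.6 to 36.4) by their replicate 2 position. These intervals treat summits as independent and compare 1 library with 1 library, so the difference has no replicate check.

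**Figure D4:**
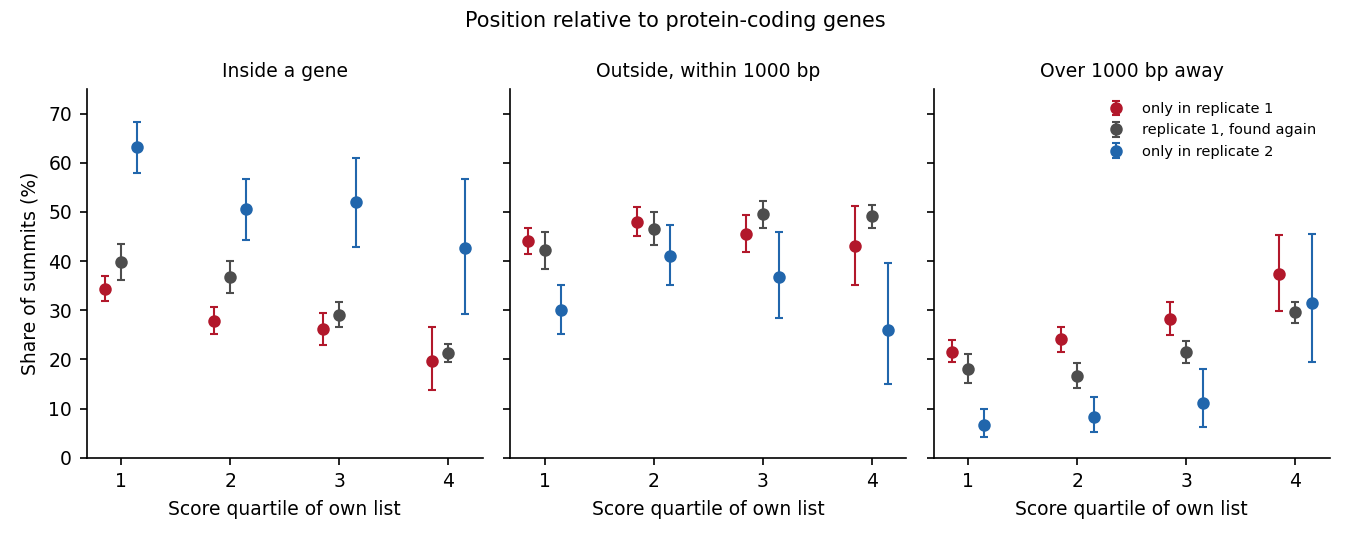
Share of summits (vertical, percent, with exact binomial 95% intervals) inside protein-coding genes, outside within 1000 bp and farther away, by score quartile of the library's own list (horizontal, 4 = highest). In the panel of summits inside genes, replicate 1-only summits lie at 34.4% in the lowest quartile and 19.6% in the highest, and replicate 2-only summits lie at 63.2% and 42.6%.

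Few replicate 1-only summits lay in gene-poor regions or in other annotated genes. In the 20% of 100 kb bins with the fewest protein-coding genes there were 180 of them (5.39%, 4.65 to 6.21), against 4.23% (3.67 to 4.85) of summits found again. Beyond 10000 bp from a replicate 2 summit the share in these bins was 8.05%. Of the 823 summits more than 1000 bp from a protein-coding gene, 657 (79.8%) had no other annotated gene within 1000 bp either, 76 (9.23%) were nearest to a long noncoding RNA gene, 35 (4.25%) to a pseudogene and 5 (0.61%) to a microRNA gene. In all, 86 summits (2.57%) lay inside another annotated gene and not inside a protein-coding one.

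Assigned to every protein-coding gene that held them or lay within 1500 bp, the replicate 1-only summits reached 3801 of 27444 genes, or 13.9% of all genes. Summits found again reached 16.7% and replicate 2-only summits 4.04%. No replicate 2 summit of any kind lay in the same window for 2965 of the 3801 genes, 10.8% of all genes. Of the 3801 genes, 739 (19.4%) also had a summit found again, as did 16.2% of genes with no replicate 1-only summit. Most genes, 3345, had 1 replicate 1-only summit, 418 had 2 and 38 had 3 or more. A summit counted for more than 1 gene in 1352 cases (40.5%) and for none in 540 (16.2%), so neighbouring genes can share the same summit. Of the genes near replicate 1-only summits, 145 were also near a replicate 2-only summit, which is 3.81% of the former and 13.1% of the 1109 genes near the latter.

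Of 179 listed genes of cytokinin, auxin and root patterning, 42 (23.5%, 17.5 to 30.4) were near a replicate 1-only summit, where all genes gave 13.9%. Summits found again were near 71 of them (39.7%), where all genes gave 16.7%. Of the 42, 12 were also near a summit found again and 30 were not. The median length of the listed genes was 2707 bp against 2078 bp for all protein-coding genes, and the part of length in the shares was not tested. The lists were chosen with earlier results on these data known.

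In the cytokinin signal chain, 3 of 9 receptor and phosphotransfer genes (33.3%, 7.49 to 70.1) were near a replicate 1-only summit, an interval that includes the 13.9% of all genes. All 3 were phosphotransfer genes. AHP1 (AT3G21510) had 2 summits with scores of 12.9 and 4.70, the stronger at 136 bp, and it also had a summit found again. AHP3 (AT5G39340) held a summit with a score of 7.32 inside the gene, and AHP5 (AT1G03430) had one at 6 bp with a score of 6.64. For AHP3 and AHP5 no replicate 2 summit lay within the window.

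Among 11 B-type response regulators, ARR10 (AT4G31920), ARR12 and ARR18 (AT5G58080) were near replicate 1-only summits (27.3%, 6.02 to 61.0). None of the 3 was near a summit found again, as was true of 80.6% of all genes near a replicate 1-only summit. ARR10, a close relative of ARR12, had 3 summits with scores of 17.9, 10.4 and 5.31, of which the strongest lay 123 bp from the gene on chromosome 4 at 15443930. ARR18 had 2, with scores of 15.1 and 3.73. The strongest summit of each of the 3 genes scored above 7.41, the median best score of all genes near a replicate 1-only summit. The B-type list thus held 3 genes near replicate 1-only summits and 2 near summits found again (18.2%, 2.28 to 51.8). The 2 intervals included the shares of all genes, 13.9% and 16.7%.

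Of the A-type response regulators, the feedback genes of the pathway, 3 of 10 (6.67% to 65.2%) were near a replicate 1-only summit, beside 13.9% of all genes, and 8 of 10 (44.4% to 97.5%) were near one found again, beside 16.7%. ARR15 (AT1G74890) had 2 replicate 1-only summits, one inside the gene with a score of 8.31 and one at 253 bp with a score of 8.88. ARR16 (AT2G40670) had one at 126 bp with a score of 9.71. The nearest replicate 2 summits lay 11127 and 17025 bp from the summits in ARR15 and beside ARR16. ARR9 (AT3G57040) had a weak one at 1488 bp with a score of 6.84, beside a summit found again with a score of 89.2. Every A-type gene was therefore near a replicate 1 summit of 1 kind or the other.

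Of the cytokinin response factors, transcription factors of the AP2/ERF type, CRF4 (AT4G27950) and CRF5 (AT2G46310) of 6 genes were near replicate 1-only summits, with scores of 8.62 and 4.83. CRF4 also had a summit found again, with a score of 24.2. Cytokinin synthesis and activation genes gave 3 of 19 (15.8%, 3.38 to 39.6), close to the 13.9% of all genes. LOG2 (AT2G35990), of a family that releases the active cytokinin base, held 2 summits with scores of 17.4 and 5.42, and the synthesis genes IPT7 (AT3G23630) and IPT3 (AT3G63110) had summits at 721 and 693 bp with scores of 8.49 and 5.89. CKX3 was the 1 of 7 cytokinin oxidase genes near a replicate 1-only summit. UGT76C2 (AT5G05860), which encodes a cytokinin glucosyltransferase, had 2 with scores of 7.47 and 7.05, the only gene of 5 in the glucosylation and export list. Apart from CKX3 and LOG2, the best replicate 1-only summits of these genes had scores under 9. The intervals of the response factor, synthesis and activation, oxidase, and glucosylation and export lists all included the 13.9% of all genes.

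The auxin lists reached shares between 7.69% and 33.3%, beside 13.9% of all genes, and the interval of each auxin list included 13.9%. Of 29 Aux/IAA repressor genes, 8 were near a replicate 1-only summit. After IAA16, the highest scores were those of IAA7 (AT3G23050), with 17.8 inside the gene, and IAA34 (AT1G15050), with 12.4 at 332 bp. IAA7, IAA14 (AT4G14550) and IAA16 also had a summit found again and the other 5 did not. Of 12 auxin carriers, 4 were near replicate 1-only summits. They were the efflux carriers PIN3, PIN4 (AT2G01420) and PIN7 and the influx carrier LAX3 (AT1G77690), with scores of 9.51, 4.19, 4.91 and 7.26. PIN4 alone of these had a summit found again, with a score of 11.8.

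The remaining auxin genes were few. The receptor gene TIR1 held a replicate 1-only summit with a score of 6.23 beside a summit found again with a score of 36.4, and it was the 1 of 6 receptor genes in the class, while 5 of 6 were near summits found again. Of all genes, 13.9% were near replicate 1-only summits and 16.7% near summits found again. ARF10 (AT2G28350), ARF11 (AT2G46530) and ARF2 (AT5G62000) of 22 response factor genes had scores of 6.64, 6.30 and 5.89. ARF10 and ARF2 also had a summit found again, with scores of 23.2 and 7.19. GH3.1 (AT2G14960) and GH3.17, of 10 genes for auxin-conjugating enzymes, had scores of 12.4 and 6.63. GH3.17 also had a summit found again, with a score of 60.0. YUC4 (AT5G11320) of 13 synthesis genes had a summit at 1014 bp with a score of 12.5. YUC8 had no replicate 1-only summit in its window but had a summit found again.

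Of 20 root meristem patterning genes, 7 (35%, 15.4 to 59.2) were near a replicate 1-only summit, beside 13.9% of all genes. None of these 7 had a summit found again or any replicate 2 summit in its window, as was the case for 80.6% and 78.0% of all genes near a replicate 1-only summit. The share was less than 1 gene above those of 3 lists at 33.3%, and with a gene window of 500 bp it was 20%, below the 33.3% of the receptor and phosphotransfer list. All genes gave 8.75% with that window. The PLETHORA genes, which maintain the stem cells and dividing cells of the root, gave PLT5 (AT5G57390) with a summit of score 18.0 inside the gene on chromosome 5 at 23255871, PLT3 with scores of 9.90 and 5.20, and BBM (AT5G17430) with 8.43 at 1025 bp. PLT1 and PLT7 had no summit of either kind in the window, and PLT2 had only one found again, with a score of 32.2. Of the zinc finger genes that act with SHR and SCR in ground tissue, JKD (AT5G03150) had a summit at 181 bp with a score of 10.2 and MGP (AT1G03840) one at 289 bp with 8.05. The HD-ZIP III genes ATHB8 (AT4G32880) and PHB (AT2G34710) had scores of 5.60 and 5.47 at 1164 and 757 bp. Summits found again were near 4 other genes of the list. The genes of this list had a median length of 3525.5 bp, against 2078 bp for all genes.

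Large families named by their symbol gave shares above and below the 13.9% of all genes. MYB transcription factor genes gave 26 of 120 (21.7%, 14.7 to 30.1), and 15 of 120 (12.5%, 7.17 to 19.8) were near a summit found again. Of the 26 MYB genes, 21 had no summit found again, close to the 80.6% of all genes near a replicate 1-only summit. The highest scores were those of MYB12 (AT2G47460), a regulator of flavonol synthesis, with 14.1, and MYB23 (AT5G40330), which acts in epidermal patterning, with 13.6. MYB12 also had a summit found again and MYB23 did not. Cytochrome P450 genes gave 43 of 224 (19.2%, 14.3 to 25) and 35 of 224 (15.6%, 11.1 to 21.1), with CYP706A4 highest at 16.0. Genes for CLE signalling peptides gave 7 of 30 (23.3%, 9.93 to 42.3) and 3 of 30 (10%). CLE40 (AT5G12990), known for its part in root stem cell control, had a summit at 984 bp with a score of 11.0 and the nearest replicate 2 summit 19484 bp from it. In these 3 families more genes were near replicate 1-only summits than near summits found again, and the intervals of the paired shares overlapped.

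Other transcription factor lists had more genes near summits found again, as all genes did with 16.7% against 13.9%. WRKY genes gave 16 of 67 (23.9%, 14.3 to 35.9) near replicate 1-only summits and 28 of 67 (41.8%, 29.8 to 54.5) near summits found again. WRKY40 (AT1G80840), a defence regulator, had the highest score, 28.4, at 764 bp, with a replicate 2 summit 1062 bp from it. HB and HAT homeobox genes gave 12 of 44 and 17 of 44, with HAT3 (AT3G60390) highest at 22.2. ERF genes gave 6 of 24 and 9 of 24, NAC genes 15 of 79 and 19 of 79, and LBD genes 3 of 35 and 6 of 35, and the paired intervals of these lists overlapped. Besides LBD37 the LBD genes were LBD14 and LBD16 (AT2G42430), a lateral root initiation gene, with scores of 7.75 and 6.97. The bHLH genes gave the opposite order, 3 of 13 and 1 of 13, and no DOF gene of 8 was near a replicate 1-only summit (upper limit 36.9%).

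Other families are read against the same 13.9% for replicate 1-only summits and 16.7% for summits found again. Arabinogalactan and fasciclin-like protein genes gave 11 of 49 near replicate 1-only summits and 22 of 49 near summits found again, with AGP30 (AT2G33790) at a score of 21.0. Expansin genes gave 5 of 23, led by EXPA9 (AT5G02260) with a summit of score 10.5 inside the gene. EXPA9 also had a summit found again. Glutathione transferase genes gave 8 of 47, of which 6 also had a summit found again. The peroxidase symbols held 1 of 5, PER4 with 16.1, the small auxin-up RNA genes 2 of 16, with SAUR68 at 11.8, and the actin genes 2 of 9, ACT8 with 9.37 and ACT11 with 4.56. The intervals of the expansin, glutathione transferase, peroxidase, small auxin-up RNA and actin shares all included 13.9%. Nuclear photosystem and light-harvesting genes gave 4 of 29 (13.8%, 3.89 to 31.7), close to all genes, and LHCA4 (AT3G47470) had the highest score, 20.9, at 91 bp.

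Ribosomal protein genes of the small subunit gave 0 of 24 (upper limit 14.2%) and those of the large subunit 2 of 22. The embryo-defective genes, a set of essential genes defined by their mutant phenotype, gave 12 of 160 (7.5%, 3.94 to 12.7), although their median length of 2989 bp was above that of all genes. The interval of this set lay below the 13.9% of all genes, while those of the ribosomal sets included it. Summits found again were also near few of these genes, where all genes gave 16.7%. They were near 15 of 160 embryo-defective genes (9.375%, 5.34 to 14.99) and 0 of 22 large-subunit genes (upper limit 15.4%). For the small subunit they were near 2 of 24 genes, with an interval that included 16.7%. Low shares in these sets were thus not particular to replicate 1-only summits.

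**Figure D5:**
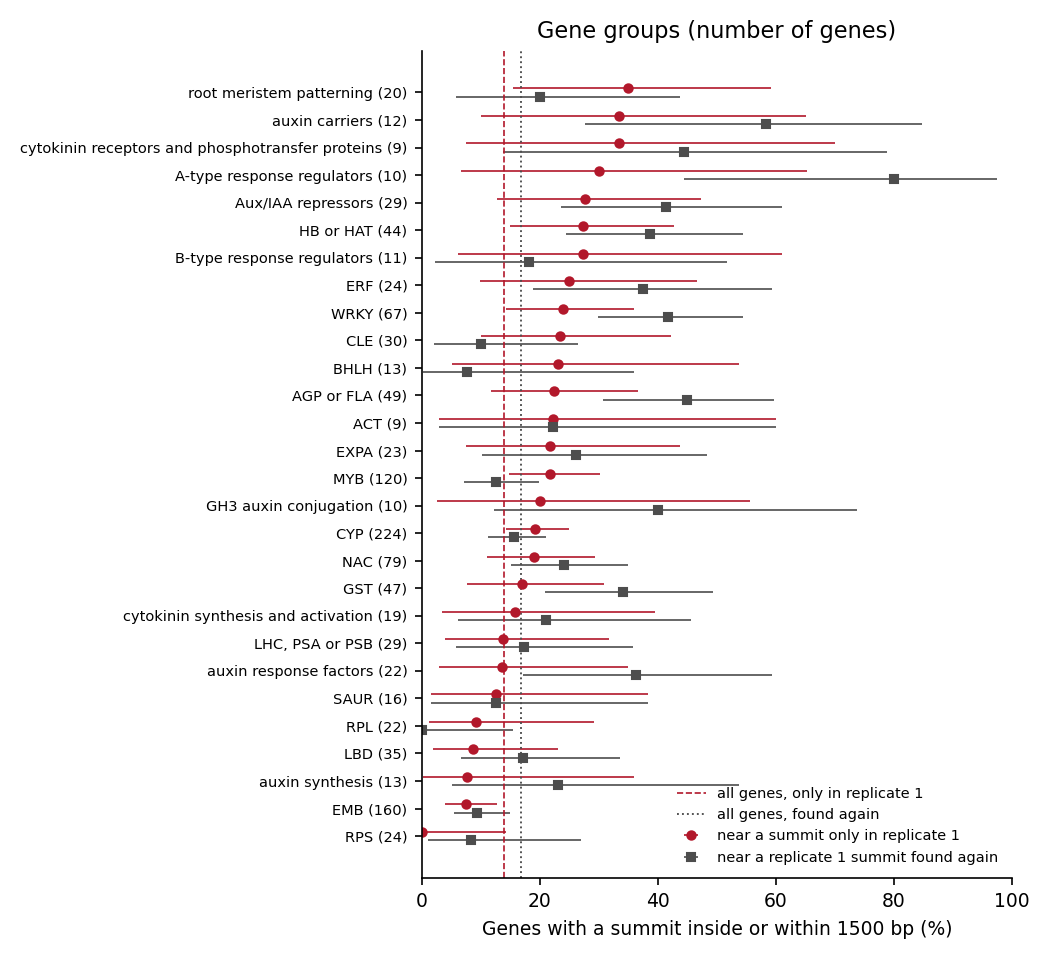
Share of genes (horizontal, percent, with exact binomial 95% intervals) that held or lay within 1500 bp of a replicate 1-only summit (circles) or a replicate 1 summit found again (squares), for the gene lists and chosen symbol families of the preceding paragraphs that have at least 9 genes, with the number of genes in parentheses. Vertical lines mark all protein-coding genes at 13.9% and 16.7%; among the groups drawn, root meristem patterning is at 35% for replicate 1-only summits and the small-subunit ribosomal genes are at 0%.

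Across all 147 symbol families with at least 10 genes, the share near replicate 1-only summits ranged from 0% to 50% with a median of 15.8%, and 83 families lay above the share of all genes. The highest were the casein kinase 1-like genes (CKL, 5 of 10), the ABCC transporters (7 of 15), the CAT symbols (5 of 11), the actin-binding NET genes (5 of 12) and, tied, the APC symbols and the HA proton pump genes (each 4 of 10). The CAT symbols cover catalases (CAT1, CAT2 and CAT3) and amino acid transporters (CAT7 and CAT8), so they are not 1 family, and CAT1 and CAT3 are neighbours that shared 1 summit. Neighbours also shared summits in CKL3 with CKL4, at a score of 5.54, and in ABCC1 with ABCC12, at 3.38. Among the HA genes the highest score was 18.6, for HA2 (AT4G30190), which also had a summit found again. The highest scores of the NET, ABCC and CKL genes were 17.5 for NET2C (AT5G10500), 11.8 for ABCC5 (AT1G04120) and 10.5 for CKL12 (AT5G57015). At the other end, 15 families had 0 genes near such a summit, of which the largest were PUM (of 25), RPS (of 20), ABCI (of 18), DEG (of 16) and NRPB (of 15). With 10 to 25 genes a family, counting error alone leaves wide intervals, such as 18.7% to 81.3% for CKL.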

How the data were processed

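Anti-GFP ChIP-seq libraries of ARR12-GFP and Col-0 root meristems were used, 2 per genotype, and the input libraries, 1 for each, were not used here. The submitters' processing notes name build TAIR10, the aligner Bowtie (1.1.1), the peak caller MACS2 (2.1.0), FastQC (0.11.2) and SAMtools. Calling settings are not stated in the sources used here. Each summit score that the authors deposited is a −log10 p-value or q-value, at least 2.00. Read depth is unknown from the lists.

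Genes came from a RefSeq table of assembly TAIR10.1 without strand or sequence, in which all 179 listed genes were matched. As a check of coordinates, 29.2% of replicate 1 summits lay inside protein-coding genes as deposited, and 57.9% and 57.4% after moves of -2000 and 2000 bp. No gene coordinates are given, only distances. A gene counted as near a summit inside it or within 1500 bp of either end.

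Shares have exact binomial 95% intervals, medians order-statistic intervals and differences Newcombe intervals. No test was run. The rule was checked on simulated lists. Genes were named by rule: those nearest to the 25 highest-scoring summits, up to 3 per list by score, those at the 1000 bp limit, the extreme families, and the genes and runs with most summits. Genes beyond it (YUC8, ARR9, PIN4 and others that complete a short list, and the members of the top families) were chosen after their values were seen. Members and lists were chosen with earlier results of these data known. Alternatives changed the distances, the score filter, the libraries and the gene window. Scripts ran in Python 3.11.15 with pandas 2.3.3 and NumPy 2.4.6; SciPy 1.17.1 gave the intervals and matplotlib 3.10.9 the plots.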

Additional observations from a re-analysis of the deposited data

How the results depend on the processing

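Matching summits within 200 bp of replicate 2 moved the median score to 7.58 and the share in the lowest score quartile to 37.5%, and requiring 2000 bp moved the share beside a gene to 48.2%. Keeping summits at or above the median score left 886 summits near 1004 genes, with 24.9% inside genes, a median score of 13.2 and, by construction, 0% in the lowest quartile. The share beside a gene was 31.8% within 500 bp and 60.1% within 2000 bp, and a 500 bp gene window left 2402 genes. Over the settings that leave out a library, the number of summits ranged from 3343 to 8024, the median score from 7.32 to 10.004, the share in the lowest quartile from 25.3% to 39.8% and the number of genes from 3801 to 7633; each far end is the setting without ARR12-GFP replicate 2, where all replicate 1 summits away from control summits remain. Without ARR12-GFP replicate 1 no summit is left, so that setting gave no value. The other 57 values stayed within their interval or within 1.5 times the count. Among summits at or above the median score, 3.66% of all genes were near one, and 8 of 14 gene lists stayed on their side of the share of all genes. At that low share, 6 lists had 0 genes near one, those of A-type regulators, cytokinin response factors, cytokinin glucosylation and export, auxin response factors, auxin carriers and auxin receptors. The auxin response factors nonetheless stayed on their side, below all genes, and auxin synthesis, with 1 of 13, changed from below to above. The order of the lists changed with the gene window: root meristem patterning was at 20%, 40% and 30% with 500 bp, 3000 bp and the nearest gene alone, and the receptor and phosphotransfer list at 33.3%, 44.4% and 33.3%. All genes gave 8.75%, 20.6% and 9.31% at these settings. No paired analysis was possible because 1 library defines the class, so no replicate pairs exist for it. The planned motif shares were not run, as no genome sequence was used.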
